A study of Mus musculus with 6 samples.

Results

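Tm4sf4 and its relatives were examined after knockdown of Brca2 in the KPC line of mouse pancreatic ductal adenocarcinoma. The set was drawn up because Tm4sf4 rose in these libraries. It names 10 genes of the L6 (Tm4sf) and tetraspanin families, of which 9 were measured among the 10616 genes of the count table, and Tm4sf5 was not analysed here. Tm4sf4 was therefore chosen on the shBrca2 to shControl comparison itself, and its values are given as a description with no test. The other members were chosen by family. The set as a whole was drawn up with results of these data known.

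L6 proteins and tetraspanins are small membrane proteins that cross the membrane 4 times, with both ends in the cytoplasm. Tetraspanins bind integrins, immunoglobulin-type partners and proteases within the membrane and organize them into surface patches, and several are used as markers of exosomes. L6 proteins share this layout but form a separate family. Tm4sf4 is known from liver, intestine and pancreas, Tm4sf1 as a surface antigen of carcinomas, and Cd151 and Tspan8 as companions of integrins in epithelial tumors.

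The study sequenced 3 libraries of KPC cells carrying an shRNA against Brca2 (shBrca2) and 3 carrying a non-targeting shRNA (shControl). Both groups share the KPC background, the pLKO.1 lentiviral vector, puromycin selection, growth medium and a sort for live cells that exclude propidium iodide, with no sort on a surface protein. All libraries stem from 1 cell line. The sources used here do not say whether the infected cells were cloned or whether the libraries of a group were separate cultures. The p-values thus set a difference against the spread between these libraries, estimated partly over all genes, and that spread may be technical. A legend in the supplement counts mice in each group while describing cultured cells, so the sources leave the unit of replication in doubt.

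Total counts ranged from 1519340 to 2452467 per library. Brca2 itself, a homologous recombination gene, had raw counts of 10, 11 and 14 in shBrca2 and 33, 52 and 33 in shControl, in the direction of the labels (log2 fold change -1.61 ± 0.44 (SE), DESeq2 adjusted p = 0.029). This call was lost without shBrca2 replicate 2 (adjusted p = 0.152 by DESeq2), without shBrca2 replicate 3 (0.233) and without shControl replicate 2 (0.371). Over the 6 fits that left out 1 library, the log2 fold change ran from -1.70 to -1.46. Brca2 had no adjusted p, hence no call, with TMM size factors or a filter of at least 10 counts in at least 3 libraries. The ductal epithelial markers Krt8, Krt18, Krt19 and Cdh1 were abundant, 6 of 7 listed markers were measured and their summed normalized count ran from 16509 to 17304 in shBrca2 and from 17430 to 18540 in shControl. The sum was thus slightly lower in shBrca2, and its part in the results below was not tested. Krt18 was the largest part of the sum, with means of 8800 in shBrca2 and 9568 in shControl (log2 fold change -0.12). Of the 6 measured markers, 4 had a log2 fold change below 0 and 2 above it. Cdh1 was among the higher ones, with means of 1012 and 811 and overlap between the groups (log2 fold change 0.32). Epcam, a defining epithelial marker, had few counts, with 3 to 10 raw counts per library, and Cldn4 was not analysed here. Krt7 was the 1 ductal marker called (log2 fold change 1.21, adjusted p = 2.07e-06 by DESeq2). Among other cell types, 1 of 8 fibroblast markers (Col1a2, 7.91 to 22.2 normalized counts), 1 of 6 immune markers (Cd68, 11.1 to 20.4), 0 of 4 endothelial markers and 1 of 5 acinar markers (Cela1, 31.3 to 58.3) were measured. The sums of these 3 lists overlapped between the groups. In bulk libraries, fewer cells of a type and less RNA per cell cannot be told apart.

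Tm4sf4 (ENSMUSG00000027801, protein coding) lies on chromosome 3 at 57425410 to 57441677 of GRCm38.p6, on the plus strand, and Tm4sf1 (ENSMUSG00000027800, protein coding) is the nearest gene measured below it in coordinates, at 57285611 to 57387736 on the minus strand. Their start regions are shown because this neighbouring pair had the largest fold changes in the set, and that of Cd81 because it was the member with the largest fold change in the other direction. Each sequence, from RefSeq on GRCm38.p6, runs 5′ to 3′ on the gene's strand from 250 bases before to 50 bases after the annotated start. For Tm4sf1 that start lies within the span given above. Capitals mark matches on either strand to 5 short motifs, and none of these matches overlapped another. The motif of the box bound by the basal transcription machinery was TATAAA. The motif of the box bound by nuclear factor Y was CCAAT. One arm of the site of HNF1, a factor of liver, gut and pancreas epithelium, was searched as GTTAAT. The motif of the dimer of Fos and Jun, known as AP-1, was TGANTCA. The motif of the TEAD factors, through which Wwtr1 acts, was CATTCC.
Tm4sf4, chr3:57425160-57425459, plus strand: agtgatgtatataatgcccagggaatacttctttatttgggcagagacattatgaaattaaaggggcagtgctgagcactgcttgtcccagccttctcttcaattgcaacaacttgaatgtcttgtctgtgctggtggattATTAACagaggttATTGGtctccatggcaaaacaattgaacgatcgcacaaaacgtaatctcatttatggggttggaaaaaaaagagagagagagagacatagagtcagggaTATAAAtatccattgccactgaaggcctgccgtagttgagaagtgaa
Tm4sf1, chr3:57301939-57302238, minus strand: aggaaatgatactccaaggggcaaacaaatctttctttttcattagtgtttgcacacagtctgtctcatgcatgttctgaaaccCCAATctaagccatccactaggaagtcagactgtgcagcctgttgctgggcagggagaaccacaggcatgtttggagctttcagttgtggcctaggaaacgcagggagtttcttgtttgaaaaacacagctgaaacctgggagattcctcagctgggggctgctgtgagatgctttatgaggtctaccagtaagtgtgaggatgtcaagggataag
Cd81, chr7:143052500-143052799, plus strand: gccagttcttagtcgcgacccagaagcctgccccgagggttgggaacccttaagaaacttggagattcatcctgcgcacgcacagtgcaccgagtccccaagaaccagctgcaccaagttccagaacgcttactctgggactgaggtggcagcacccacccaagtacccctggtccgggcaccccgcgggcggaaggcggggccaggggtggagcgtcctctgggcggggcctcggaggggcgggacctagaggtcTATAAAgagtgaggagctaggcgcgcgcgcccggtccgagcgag

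The Tm4sf4 start region held 1 match each to the TATA box, the factor Y box and the HNF1 arm, that of Tm4sf1 held only the factor Y box and that of Cd81 only the TATA box. The TATA box letters began 3 bases past the annotated start of Tm4sf4 and 6 past that of Cd81. Of all 32851 RefSeq start regions of this length, 13.6% held the TATA box letters, 37.4% those of the factor Y box, 7.1% the HNF1 arm, 7.81% the AP-1 letters and 14.7% the TEAD letters. The start regions also differed in CpG dinucleotides. Tm4sf1 had 1, Tm4sf4 had 4, Tspan8 had 5, Cd63 had 6 and the unmeasured Tm4sf5 had 7, against a median of 7 over all start regions. Cd9 had 18, Tspan3 had 19 and Cd81 had 23. Cd82 and Cd151 have several annotated starts, with 4 to 16 and 4 to 20. A match of letters is a description of the sequence and not a binding site.

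Tm4sf4 was near 3 times as abundant in shBrca2 as in shControl. Its raw counts were 231, 386 and 434 under shBrca2 and 99, 163 and 153 under shControl. The normalized counts, which are counts divided by the library's size factor, were 315, 365 and 378 in shBrca2 and 100.03, 137 and 151 in shControl. The lowest shBrca2 library stood at more than 2 times the highest shControl library. The means were 352 ± 33.3 and 129 ± 26.4 (SD, n = 3). The fitted ratio was 2.73-fold, or 1.45 ± 0.20 (SE) on the log2 scale. The fold change was similar whichever library was left out, from 1.29 without shControl replicate 1 to 1.57 without shControl replicate 3 on the log2 scale. Gm56807 overlaps Tm4sf4 on the opposite strand in GENCODE vM39, without shared exon sequence, and the strand setting of the counting is not given in the sources used here.

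Tm4sf1, the other L6 member measured, had lower counts and a smaller difference. Its normalized counts were 95.3, 90.7 and 73.1 in shBrca2 and 51.5, 57.0 and 44.5 in shControl. All shBrca2 libraries lay above all shControl libraries. The log2 fold change was 0.75 ± 0.27 (SE), with a 95% interval from 0.22 to 1.29, and it did not pass over all genes (DESeq2 likelihood ratio test, adjusted p = 0.249; 0.12 by edgeR). Within a library, 3.30, 4.02 and 5.17 Tm4sf4 counts were found per Tm4sf1 count in shBrca2, and 1.94, 2.397 and 3.40 in shControl. These ratios, which do not depend on a size factor, overlapped between the groups.

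**Figure D1:**
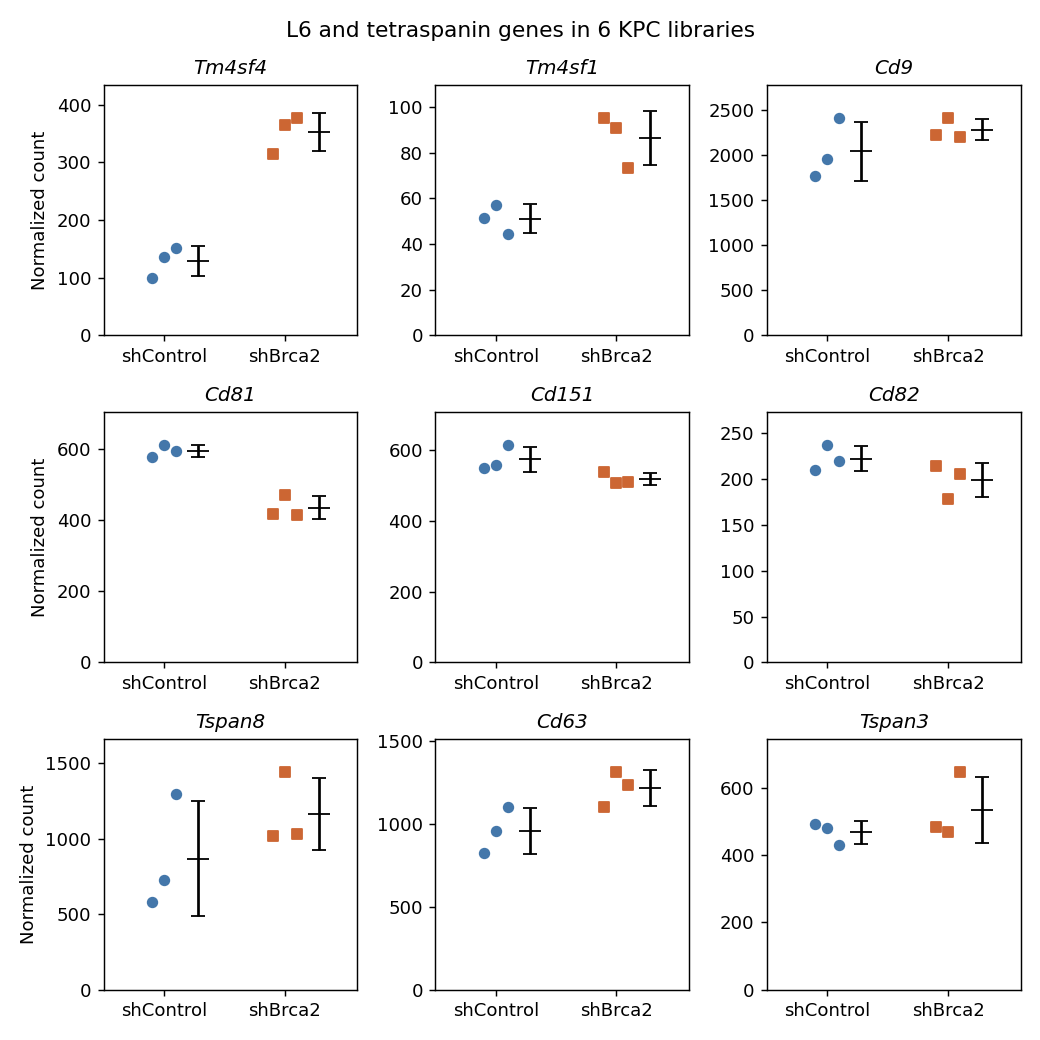
Normalized counts (y axis, from 0) of the 9 measured members in the 3 shControl (circles) and 3 shBrca2 (squares) libraries, with the group mean and SD (black, n = 3). Tm4sf4 and Tm4sf1 lie higher in every shBrca2 library, Cd81 lies lower in every one, and Cd9, Cd82, Tspan8 and Tspan3 overlap between the groups.

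With the thresholds of the study's methods, a called gene had an adjusted p under 0.1, a base mean (its mean normalized count over the 6 libraries) over 5, and a log2 fold change past 0.5 in either direction. By this rule 127 of 9997 genes with an adjusted p were called (1.27%). Tm4sf4 is among them by the way it was chosen, and its call is no test. Of the 8 other members, 0 were called by DESeq2 and 0 by edgeR, and 3 of them (Tm4sf1, Cd63 and Cd81) had an unadjusted p under 0.05, a level that 8.66% of all genes passed. The groups did not overlap for 5 of the 9, higher in shBrca2 for Tm4sf4, Tm4sf1 and Cd63 and lower for Cd81 and Cd151. This was so for 20.6% of all genes, 10.2% higher and 10.4% lower. Each share of all genes in this report is over the 9997 with an adjusted p. The set holds the gene it was built around, so its counts are not read against these shares. The median log2 fold change was 0.19 over the 9 members and -0.0009 over all genes with an adjusted p.

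Among the 7 tetraspanins of the set, Cd81, which partners immunoglobulin-type proteins, had the fold change farthest from 0. It had normalized counts of 418, 472 and 415 in shBrca2 and 578, 612 and 595 in shControl. The groups were apart by more than 100 normalized counts, and the spread within shControl was small (SD of 17.1 around 595). The log2 fold change was -0.45 ± 0.15 (SE), with a 95% interval from -0.75 to -0.16, and the adjusted p was 0.155 by DESeq2 and 0.14 by edgeR. It passed in 1 of the 6 fits that left out a library, without shBrca2 replicate 2 (log2 fold change -0.52, adjusted p = 0.0967 by DESeq2). R74862 overlaps exons of Cd81 on the opposite strand. Exons of Cd9, Cd63, Cd151, Tspan8 and Brca2 also overlap exons of opposite-strand genes. Polr2l is among these genes for Cd151 and N4bp2l1 for Brca2. Such overlaps are not listed for every gene named below.

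Cd9, which acts in egg and sperm fusion and in adhesion and binds the same partners as Cd81, was the most abundant member. Its normalized counts were 2227, 2416 and 2203 in shBrca2 and 1769, 1952 and 2407 in shControl. The shControl libraries spread widely and replicate 3 reached the shBrca2 level. The log2 fold change was 0.16, with a 95% interval from -0.13 to 0.45 (adjusted p = 0.879 by DESeq2). Cd9 counts per Cd81 count, taken within each library after the values were seen, were 5.33, 5.12 and 5.31 in shBrca2 and 3.06, 3.19 and 4.04 in shControl. These ratios did not overlap between the groups and are given with no test.

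Cd151, which binds the laminin-binding integrins, had normalized counts of 538, 506 and 508 in shBrca2 and 548, 558 and 614 in shControl. The groups did not overlap, but by a margin of under 10 counts. The log2 fold change of -0.15 had a 95% interval from -0.44 to 0.14 (adjusted p = 0.889 by DESeq2). Cd82, known as a suppressor of metastasis, had 214, 178 and 205 in shBrca2 and 210, 237 and 219 in shControl. The groups overlapped, and the log2 fold change of -0.16 had a 95% interval from -0.53 to 0.20 (adjusted p = 0.91 by DESeq2).

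Tspan8, a tetraspanin of gut epithelium and carcinomas, varied most between libraries of 1 group. Its normalized counts were 1019, 1442 and 1029 in shBrca2 and 580, 725 and 1297 in shControl. Among shControl libraries replicate 3 was high, and their variance was 169.8 times that expected from counting error alone. The same index was 0.53 for Cd81 and 5.39 for Tm4sf4 in shControl. For the same relative spread this index rises with the count, and the shControl means were 868 for Tspan8 and 129 for Tm4sf4. It is therefore no common scale for genes of unlike abundance. With all libraries the log2 fold change of Tspan8 was 0.42, with a 95% interval from -0.05 to 0.89 (adjusted p = 0.663 by DESeq2), and without shControl replicate 3 it was 0.83 and passed (adjusted p = 0.014 by DESeq2). Dropping shControl replicate 1 instead lowered it to 0.20, shControl replicate 2 to 0.31 and shBrca2 replicate 2 to 0.24. Dropping shBrca2 replicate 1 or replicate 3 gave 0.51 each. Tspan8 passed in only 1 of these 6 fits. The call thus appeared only when shControl replicate 3 was dropped, while the estimate moved in both directions with the library dropped.

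Of the tetraspanins of internal membranes, Cd63, which resides in late endosomes and lysosomes and marks exosomes, had 1102, 1315 and 1236 in shBrca2 and 823, 958 and 1101 in shControl. The lowest shBrca2 and the highest shControl library were almost equal. The log2 fold change was 0.34, with a 95% interval from 0.04 to 0.65 (adjusted p = 0.479 by DESeq2). Cd63 counts per Cd81 count, again taken after the values were seen, were 2.64, 2.79 and 2.98 in shBrca2 and 1.42, 1.56 and 1.85 in shControl. Tspan3 had 484, 471 and 648 in shBrca2 and 492, 482 and 430 in shControl, with shBrca2 replicate 3 alone above the rest (log2 fold change 0.19, adjusted p = 0.872 by DESeq2).

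A 3′ end library yields reads from 1 end of each transcript, so counts of different genes were set side by side without division by length. Whether a transcript of each gene yields counts equally well was not tested, so the orders below are orders of counts. In shControl the order of mean normalized counts was Cd9 (2043), Cd63 (961), Tspan8 (868), Cd81 (595), Cd151 (573), Tspan3 (468), Cd82 (222), Tm4sf4 (129) and Tm4sf1 (51.0). The ranges over libraries of Cd63 and Tspan8, of Tspan8 and Cd81, and of Cd81 and Cd151 overlapped, while the other neighbours in this order were apart. In shBrca2 the order was Cd9 (2282), Cd63 (1217), Tspan8 (1163), Tspan3 (534), Cd151 (517), Cd81 (435), Tm4sf4 (352), Cd82 (199) and Tm4sf1 (86.4), and the ranges overlapped between Cd63 and Tspan8 and between Tspan3 and Cd151 only. Tm4sf4 and Cd82 thus changed places. As Tm4sf4 was chosen because it rose, this change, its ratio to Cd82 and its share below are a description with no test. Within each library Tm4sf4 had 1.47, 2.05 and 1.84 counts per Cd82 count in shBrca2 and 0.476, 0.576 and 0.689 in shControl. The 9 members took 0.310%, 0.350% and 0.326% of all counts in shBrca2 and 0.243%, 0.278% and 0.340% in shControl. Of the members' own counts, Tm4sf4 took 4.91% to 5.64% in shBrca2 and 1.94% to 2.39% in shControl, Cd81 took 6.20% to 6.52% and 8.68% to 11.2%, and Cd9 took 32.9% to 34.7% and 34.1% to 35.1%.

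**Figure D2:**
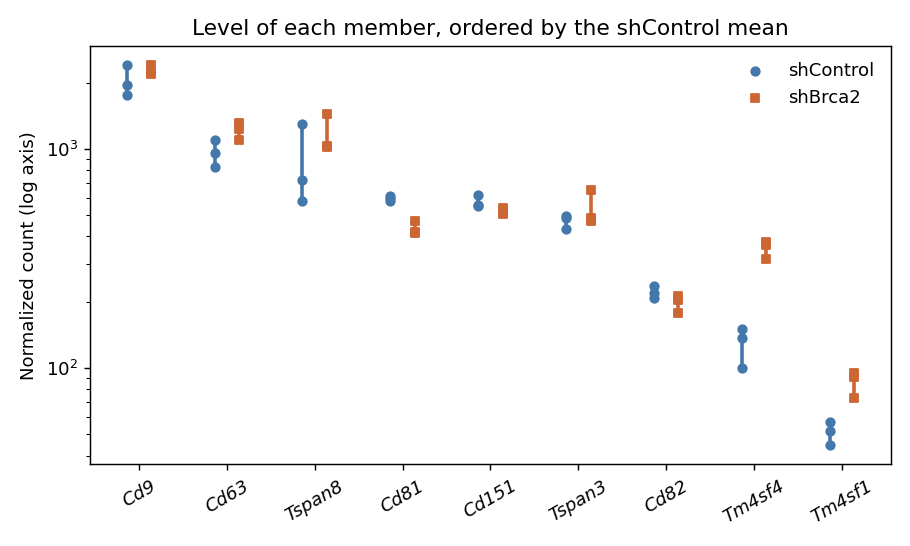
Normalized counts on a log axis for the 9 members, ordered by the shControl mean, with 1 point per library (circles shControl, squares shBrca2) and a line over the range of each group. Tm4sf4, chosen on this comparison, lies below Cd82 in shControl (129 against 222) and above it in shBrca2 (352 against 199).

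The rest of both families was then listed, 25 genes of which 16 were measured. By DESeq2 0 of the 13 with an adjusted p were called, and 0 by edgeR, against 1.27% of all genes with an adjusted p. Of the 16, 4 had an unadjusted p under 0.05, all among the 13 with an adjusted p, against 8.66% of all genes. The median log2 fold change was 0.15, 9 values were above 0 and 7 below, and the groups did not overlap for 5 genes, all higher in shBrca2, against 10.2% of all genes higher and 10.4% lower. The most abundant were Tspan4 (base mean 504, log2 fold change -0.22), Tspan31 (264, -0.19), Tspan9 (137, 0.12) and Tspan14 (131, 0.41). Their DESeq2 adjusted p-values were 0.867, 0.882, 0.953 and 0.589. Exons of Tspan31 overlap those of Cdk4 on the opposite strand, and exons of Tspan4 those of Chid1 and Polr2l.

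The 4 genes with an unadjusted p under 0.05 were all higher, and they are named after their values were seen. Tm4sf20, a further L6 gene, had raw counts of 16, 31 and 43 in shBrca2 and 3, 18 and 12 in shControl (log2 fold change 1.55 ± 0.53 (SE), adjusted p = 0.163 by DESeq2). Tspan13 had normalized counts of 109, 97.4 and 133 in shBrca2 and 79.8, 60.4 and 57.3 in shControl (log2 fold change 0.79 ± 0.26 (SE), adjusted p = 0.142 by DESeq2), and was called without shControl replicate 1 (0.94, adjusted p = 0.0831). Tspan17, of the subgroup that escorts the protease Adam10 to the surface, had 92.6, 127 and 118 against 79.8, 67.1 and 78.1 (log2 fold change 0.60, adjusted p = 0.364 by DESeq2). Tspan12 is a co-receptor in Norrin and frizzled signalling. It had 13, 5 and 7 raw counts in shBrca2 and 2, 2 and 1 in shControl (adjusted p = 0.307 by DESeq2). Its mean normalized count in shBrca2 was 3.35 times a floor of 3 counts per library in shControl. This ratio is no lower bound on the fold change, whose interval ran from 0.57 to 4.55 on the log2 scale. Replicate 1 carried much of that mean, with 17.7 normalized counts against 4.73 and 6.09 in the other shBrca2 libraries.

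**Figure D3:**
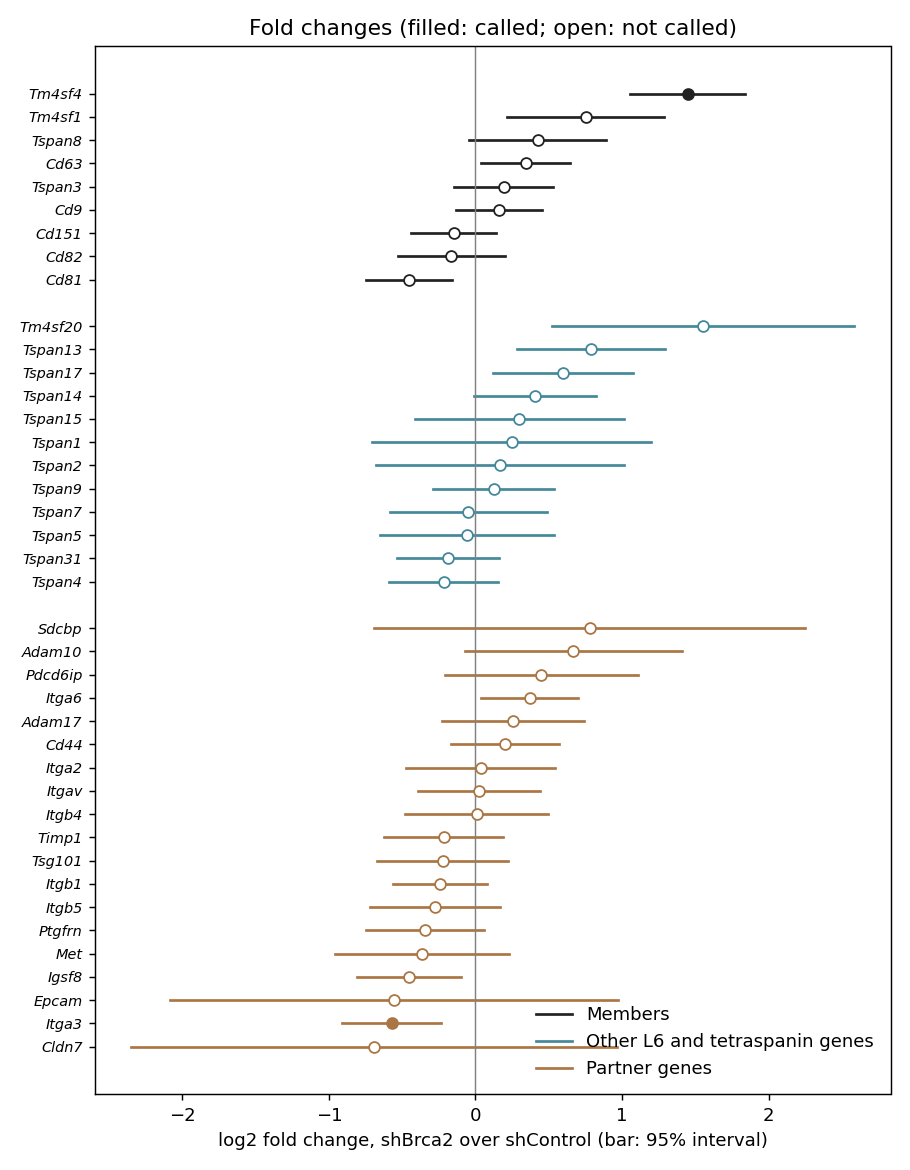
Log2 fold change of shBrca2 over shControl (x axis) with its 95% interval for members, other L6 and tetraspanin genes, and partner genes that have an adjusted p, leaving out Tspan12, whose shControl counts are at the floor. Filled points are called genes, which are Itga3 (-0.57) and Tm4sf4 (1.45), the latter chosen on this comparison.

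Proteins that tetraspanins bind, and factors of endosomes and exosomes, were covered by a list of 20 genes, all measured. By DESeq2 1 was called lower and 0 higher, against 0.5% and 0.77% of all genes with an adjusted p, and 3 had an unadjusted p under 0.05, against 8.66% of all genes. The median log2 fold change was -0.22. The groups did not overlap for 1 gene higher in shBrca2 and 4 lower, against 10.2% and 10.4% of all genes. The called gene was Itga3, the integrin chain that pairs with Itgb1 to bind laminin and associates with Cd151. Its normalized counts were 580, 389 and 449 in shBrca2 and 655, 709 and 739 in shControl, without overlap. The log2 fold change was -0.57 ± 0.17 (SE), and its DESeq2 adjusted p was 0.0827. The call was lost by edgeR (0.15) and in 4 of the 6 fits that left out a library, without shBrca2 replicate 2 (0.314), shBrca2 replicate 3 (0.517), shControl replicate 2 (0.509) and shControl replicate 3 (0.316). Itga3 exons overlap Gm57362 on the opposite strand.

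Itga6, another laminin-binding chain in the list, had a log2 fold change of 0.37, with a 95% interval from 0.04 to 0.70 (adjusted p = 0.489 by DESeq2). Itgb1, a beta chain that both can pair with, had -0.24 (adjusted p = 0.772 by DESeq2). Igsf8, an immunoglobulin-type partner of Cd9 and Cd81, had normalized counts of 213, 188 and 176 in shBrca2 and 273, 247 and 268 in shControl, lower without overlap (log2 fold change -0.45, adjusted p = 0.337 by DESeq2). Its relative Ptgfrn had 266, 178 and 171 against 249, 280 and 245, with overlap (log2 fold change -0.35, adjusted p = 0.7 by DESeq2). Igsf8 and Ptgfrn were picked for mention after their values were seen. Sdcbp, the adaptor syntenin that binds Cd63, had 489, 214 and 589 in shBrca2 and 463, 199.6 and 91.0 in shControl. High and low libraries occurred in both groups, and the variance among shControl libraries was 148.7 times that of counting error.

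The genomic surroundings of Tm4sf4 were examined next. Of the genes annotated within 500 kb of Tm4sf4 in RefSeq on GRCm38.p6, 5 others were measured. Wwtr1, which encodes the transcriptional co-activator TAZ and whose nearer end lies 14 kb from Tm4sf4, had normalized counts of 99.4, 79.4 and 71.4 in shBrca2 and 93.0, 78.8 and 86.0 in shControl (log2 fold change -0.05, 95% interval from -0.55 to 0.44, adjusted p = 0.988 by DESeq2). Commd2, 203 kb away, had 5 to 9 raw counts per library, too few to resolve a difference of moderate size. Rnf13, a ubiquitin ligase gene 294 kb away, had 309, 284 and 329 in shBrca2 and 242, 216 and 143 in shControl (log2 fold change 0.61, adjusted p = 0.167 by DESeq2). Pfn2, which encodes the actin-binding profilin 2 and lies 400 kb away, had raw counts of 23, 28 and 44 against 21, 8 and 13 (log2 fold change 1.26 ± 0.48 (SE), adjusted p = 0.288 by DESeq2). The groups did not overlap for Tm4sf1, Rnf13 and Pfn2, which were higher in shBrca2, as were 10.2% of all genes, and nothing particular to this region is read from these values.

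**Figure D4:**
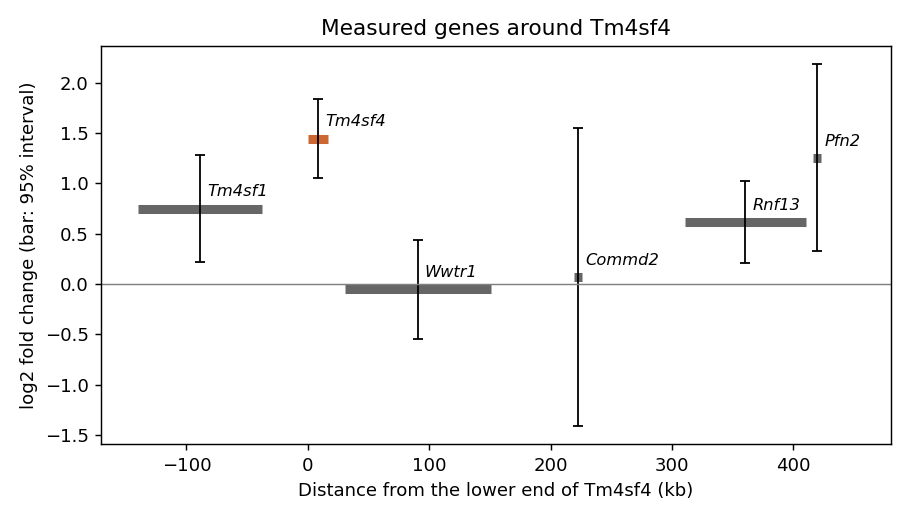
Log2 fold change of shBrca2 over shControl (y axis, 95% interval as bars) for the 6 measured genes around Tm4sf4, drawn as bars to scale at their distance in kb from its lower end (x axis). Tm4sf4 (orange), chosen on this comparison, sits at 1.45 and Wwtr1 next to it at -0.05.

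The genes whose levels across the 6 libraries were most like those of Tm4sf4 were sought among 7795 genes with a base mean of at least 20, by the root mean square difference of log2(normalized count + 1) centred on each gene's own mean. The closest was Aqp5 (0.0857), a water channel of secretory epithelia, followed by Sptssb (0.134), a subunit of serine palmitoyltransferase, Anxa13 (0.159), an annexin of intestinal epithelium, Cdkn1b (0.163), the cyclin-dependent kinase inhibitor p27, and Serpinb1a (0.186), a protease inhibitor. Aqp5 had normalized counts of 183, 197 and 209 in shBrca2 and 63.7, 83.9 and 85.0 in shControl. Like Tm4sf4, it was lowest in shControl replicate 1 and highest in shBrca2 replicate 3. Cdkn1b had 28.6, 28.4 and 28.7 against 8.08, 13.4 and 14.8, at 8 to 33 raw counts. A gene had to be higher in shBrca2 by about the same fold to be close to Tm4sf4, so these values are a description of 6 libraries with no test.

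**Figure D5:**
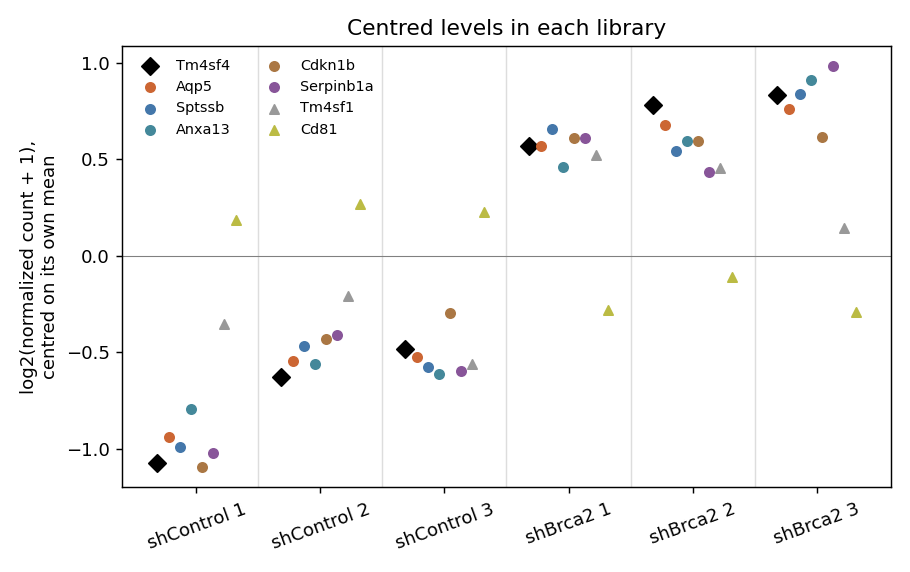
Log2(normalized count + 1), centred on each gene's mean over the 6 libraries (y axis), for Tm4sf4 (diamonds), the 5 genes most like it (circles) and Tm4sf1 and Cd81 (triangles), by library (x axis). Tm4sf4 and the 5 genes lie below 0 in all 3 shControl libraries and above it in all 3 shBrca2 libraries, while Cd81 lies on the opposite side in each.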

How the data were processed

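RNA was captured on oligo(dT) beads from sorted live KPC cells, and 3′ end libraries were prepared by MARS-seq and read on a NextSeq 500. The submitters' processing notes name bcl2fastq, cutadapt, STAR 2.4.2a, HTSeq, DESeq2 and the build mm10. The annotation, the strand setting and the use of molecular identifiers are not given in the sources used here. The deposited values are raw counts for each gene symbol and library, which the authors neither normalized nor pooled. Each listed gene has at least 6 counts in some library. An index set against counting error covers that error alone.

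The source name of each sample in the labels gave its group. DESeq2 1.42.0 in R 4.3.3 was fitted on all 10616 genes using a likelihood ratio test of group, after scaling by median-of-ratios size factors, and p-values were adjusted by Benjamini-Hochberg. In all, 619 genes had no adjusted p, 618 of them below the base mean of 4.64 at which DESeq2 filtered. Intervals are 95% Wald intervals of unshrunken fold changes. edgeR 4.0.16 (quasi-likelihood, TMM, filterByExpr), the Wald test, TMM or total counts as size factors, a filter of at least 10 counts in at least 3 libraries, an adjusted p under 0.05, no minimum fold change and each library left out in turn were the alternatives. Scripts were tested on simulated counts. The members, lists and alternatives were chosen with earlier results of these data known. Genes were named if they were members, Brca2, called or among the 4 most abundant of a list, among the 5 most like Tm4sf4, or within 500 kb of it, and others are marked as chosen after their values were seen. Positions and start regions came from RefSeq on GRCm38.p6, the build that mm10 denotes, and strands, Ensembl identifiers and overlaps from GENCODE vM39 on GRCm39.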

Additional observations from a re-analysis of the deposited data

How the results depend on the processing

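No paired analysis was possible because no replicate number in the labels links an shBrca2 library to an shControl library. Over the 11 refits of each gene (5 with all libraries, 6 leaving 1 out) that gave an adjusted p, direction never reversed for the members, Brca2 or Itga3. Direction and call held in 109 comparisons, 8 were weaker (Brca2 and Itga3) and 2 stronger (Cd81 and Tspan8). Brca2 with TMM size factors or the filter on counts gave no adjusted p and is outside this tally. The alternatives for Itga3 were added after seeing the data. Tm4sf4 ranged from 1.29 to 1.57 on the log2 scale. Called members numbered from 1 to 2 over the 6 fits that left out 1 library, called genes among the other L6 and tetraspanin genes from 0 to 1 and called partner genes from 0 to 1. Partner genes dropped to 0 by edgeR and to 0 at an adjusted p under 0.05. All called genes ranged from 47 (without shBrca2 replicate 3) to 140, with 55 without shControl replicate 2 and 81 without shBrca2 replicate 1, against 127 with all libraries and 121 by edgeR, where each of these smaller fits has less power. No scaling moved the median of all genes by over 0.1. Low counts limit Commd2, Tm4sf20, Tspan12, Tspan33 and Upk1a. As the libraries number 3 per group, members with intervals across 0 may still differ.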
